A study of Mus musculus with 8 samples.

Results

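The miR-200 family is a group of 5 microRNAs (miRNAs) best known as markers of epithelial cells: miR-200a-3p, miR-200b-3p, miR-429-3p, miR-200c-3p and miR-141-3p. The members were taken by name from tables of 1978 mature miRNAs listed in exosomes of cerebrospinal fluid (CSF) or plasma, and all 5 were listed in both fluids. Exosomes are small vesicles that cells release into body fluids. They had been isolated from adult wild-type mice that were male or female, and that had either received DOCA-salt (deoxycorticosterone acetate with salt, in which a precursor of aldosterone and a salt load together raise blood pressure) or, as the baseline, no treatment. There were 8 libraries, 1 for each combination of fluid (CSF or plasma), treatment (DOCA-salt or baseline) and sex, all labelled as 1 batch. The labels state 8 mice in all without tying libraries to mice or saying whether fluids were pooled. No combination was repeated, so every p-value below measures the spread between libraries of unlike mice.

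A miRNA is cut from a hairpin precursor as a short RNA duplex, and the strand that is loaded into an Argonaute protein guides repression of messenger RNAs that match its seed, the bases near its 5′ end. In mammals the family is encoded in 2 clusters and is abundant in epithelia such as those of gut, kidney, lung and skin. Its best known targets are the messenger RNAs of Zeb1 and Zeb2, transcription factors that repress E-cadherin, and Zeb1 and Zeb2 in turn repress both clusters. The amount of a miRNA in exosomes depends on how many cells release vesicles and on how much each vesicle carries, and fewer releasing cells and less RNA per vesicle cannot be told apart here.

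The 5 mature sequences are shown because they fall into 2 seed groups that do not follow the 2 clusters. They were matched by name in RefSeq (GRCm38.p6), and the seed, bases 2 to 8, is in capitals.
miR-200a-3p: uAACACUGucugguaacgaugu
miR-141-3p: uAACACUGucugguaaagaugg
miR-200b-3p: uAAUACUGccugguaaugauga
miR-200c-3p: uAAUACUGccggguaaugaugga
miR-429-3p: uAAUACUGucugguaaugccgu

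miR-200a-3p, miR-200b-3p and miR-429-3p lie on the minus strand of chromosome 4, where their hairpins span 1846 bases (chr4:156053905-156055750, GRCm38). In the GENCODE M21 annotation of that build they lie within an intron of Ttll10, a gene of the tubulin tyrosine ligase-like family. They also overlap the non-coding gene Gm13648, miR-429-3p in an exon and miR-200a-3p and miR-200b-3p in an intron. miR-200c-3p and miR-141-3p lie on the minus strand of chromosome 6, with hairpins spanning 477 bases (chr6:124717914-124718390), within an intron of the non-coding gene Gm15884. miR-141-3p also overlaps an exon of the gene Gm29008 on the same strand. Each cluster therefore holds both seeds. The seed AACACUG of miR-200a-3p and miR-141-3p was found in these 2 of 1679 mature mouse miRNAs in the RefSeq table, and AAUACUG in 3, which were miR-200b-3p, miR-200c-3p and miR-429-3p.

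A pair of members from different clusters was nearly identical within each seed group. Counted from 1 at the 5′ end, miR-200a-3p and miR-141-3p differed at 2 of 22 positions (C17A and U22G, with miR-200a-3p first), and miR-200b-3p and miR-200c-3p likewise at 2 (U11G and A22G, with miR-200b-3p first). Members of the same cluster but of different seeds, such as miR-200a-3p and miR-200b-3p, differed at 4, of which 1 (C4U) lay in the seed. miR-429-3p and miR-200c-3p, of 1 seed but different clusters, differed at 5. How the authors' alignment treated reads that fit both members of a close pair is not given in the sources used here. The split of counts within the 2 close pairs is therefore uncertain. As each pair holds a member of either cluster, the shares of the clusters given below depend on that split, whereas sums by seed do not. Members were 22 or 23 bases long, so their counts were compared without scaling by length.

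Counts are unique molecular identifiers (UMIs), which mark single RNA molecules, and levels are CPM, the usual scaling of a miRNA's UMIs to the total of its library. Libraries held 237878 to 1082504 UMIs in CSF and 158572 to 337240 in plasma. The CSF libraries were read less deeply per molecule, with 1.19 to 1.69 reads per UMI against 3.68 to 6.19 in plasma. Fluids also differed in marker miRNAs. A list of 7 striated muscle miRNAs took 36.3 to 56.6% of UMIs in CSF and 0.290 to 1.5% in plasma, and a list of 6 erythrocyte miRNAs took 2.10 to 5.09% in CSF and 11.8 to 20.3% in plasma. The erythrocyte miRNAs went both ways. miR-16-5p had mean levels of 25080 CPM in CSF and 100700 CPM in plasma, whereas miR-451a had 839 and 533 CPM. In the test between fluids given below, 2 of these 6 were called higher in CSF and 1 lower. A list of 6 neuronal miRNAs took 0.189 to 0.328% in CSF and 0.147 to 0.305% in plasma. These near sums held unlike members. miR-9-5p had mean levels of 999.5 CPM in CSF and 143 CPM in plasma, whereas miR-128-3p had 1036 and 1644 CPM. Of the 4 neuronal miRNAs tested between fluids, 3 were called higher in CSF and 0 lower. The part of this composition in the results on fluids was not tested. A fit without the muscle list, given below, cannot decide it, because its scaling already trims miRNAs with extreme ratios. Intervals below are exact 95% intervals that cover counting error only.

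The family was scarce in CSF exosomes and common in plasma exosomes. Together the 5 members made up 0.00388 to 0.0118% of UMIs in the CSF libraries, which is 23, 42, 28 and 44 UMIs in the DOCA-salt female, DOCA-salt male, baseline female and baseline male. In plasma they made up 0.123 to 0.794%, with 446, 2418, 343 and 314 UMIs in the same order. The order DOCA-salt female, DOCA-salt male, baseline female, baseline male is kept wherever 4 values of a fluid follow each other.

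miR-200c-3p, from the chromosome 6 cluster, was the most abundant member in all 4 plasma libraries. It had 4, 30, 17 and 24 UMIs in the CSF libraries (13.2, 27.7, 71.5 and 31.9 CPM), against 144, 940, 99 and 92 UMIs in the plasma libraries (427, 3085, 354 and 580 CPM). It was also the CSF member with the most UMIs in 3 of 4 libraries, the exception being the DOCA-salt female. Among all miRNAs its mean CPM ranked 622 in CSF and 84 in plasma.

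miR-200a-3p, from the chromosome 4 cluster, was second in all 4 plasma libraries and last by mean level in CSF. It had 1, 1, 2 and 4 UMIs in the CSF libraries (3.29, 0.924, 8.41 and 5.31 CPM), against 105, 551, 86 and 75 UMIs in the plasma libraries (311, 1808, 307 and 473 CPM). At 3 or fewer UMIs a CSF library says little about the level: the single UMI in the DOCA-salt male allowed 0.0234 to 5.15 CPM. By mean CPM it ranked 1682 in CSF and 117 in plasma.

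miR-141-3p, which has the same seed as miR-200a-3p, came after these 2 in every plasma library. It had 10, 1, 1 and 3 UMIs in the CSF libraries (32.9, 0.924, 4.20 and 3.98 CPM), against 93, 473, 61 and 69 UMIs in the plasma libraries (276, 1552, 218 and 435 CPM). The DOCA-salt female held 10 of its 15 UMIs in CSF. That library was the only one of the 8 in which miR-141-3p was the leading member.

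miR-200b-3p had 1, 5, 4 and 6 UMIs in the CSF libraries (3.29, 4.62, 16.8 and 7.97 CPM), against 53, 237, 51 and 26 UMIs in the plasma libraries (157, 778, 182 and 164 CPM). miR-429-3p had 7, 5, 4 and 7 UMIs in the CSF libraries (23.1, 4.62, 16.8 and 9.29 CPM), against 51, 217, 46 and 52 UMIs in the plasma libraries (151, 712, 164 and 328 CPM). miR-200b-3p and miR-429-3p, which share a seed and a cluster, were the least abundant members in plasma, and they changed places between plasma libraries.

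For every member the highest CSF library lay below the lowest plasma library in CPM, a pattern that 940 of the 1960 miRNAs listed in both fluids also showed (48.0%). The mean CPM in CSF was 36.1 ± 24.9 for miR-200c-3p, 13.5 ± 8.14 for miR-429-3p, 10.5 ± 15 for miR-141-3p, 8.18 ± 6.09 for miR-200b-3p and 4.48 ± 3.17 for miR-200a-3p (SD, n = 4 libraries). In plasma the order was miR-200c-3p with 1111 ± 1319 CPM, miR-200a-3p with 725 ± 726, miR-141-3p with 620 ± 628, miR-429-3p with 339 ± 262 and miR-200b-3p with 320 ± 305 (SD, n = 4). Neighbours in either order differed by less than their spread over libraries, although within each plasma library the first 3 kept their places.

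**Figure D1:**
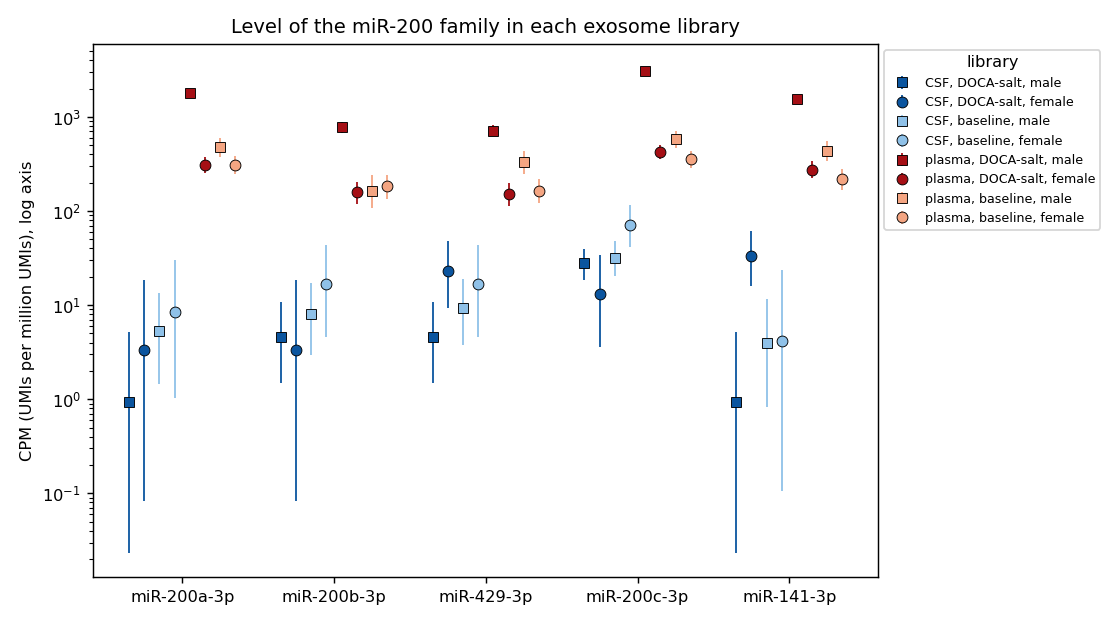
Level of each miR-200 member in the 8 exosome libraries, as CPM on a log axis, with exact 95% counting intervals. CSF points (blue) lie between 0.924 and 71.5 CPM and plasma points (red) between 151 and 3085 CPM, and the DOCA-salt male (dark red square) is the highest plasma library for all 5 members.

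All 5 members were lower in CSF than in plasma exosomes in edgeR's quasi-likelihood test with TMM scaling (a trimmed mean of log ratios that sets library sizes from the bulk of miRNAs) and Benjamini-Hochberg adjustment. Of the 1146 miRNAs tested, 593 were called at an adjusted p under 0.05 (51.7%), 300 higher and 293 lower in CSF, so a call by itself was common. The median log2 difference over all miRNAs tested was -0.12. TMM scaling holds this median near 0, so it does not show how unusual the members' differences are. miR-200a-3p differed most, with a log2 difference of -5.76 ± 0.69 (SE, adjusted p = 2.91e-06), a 54.2-fold lower fitted level. miR-141-3p followed at -4.61 ± 0.72 (adjusted p = 4.22e-05), so the 2 members with the seed AACACUG had the largest differences. The 3 members with the seed AAUACUG were closer together, at -3.67 ± 0.59 for miR-200b-3p (adjusted p = 5.51e-05), -3.26 ± 0.64 for miR-200c-3p (adjusted p = 0.000336) and -3.17 ± 0.51 for miR-429-3p (adjusted p = 5.05e-05). In this fit members and seeds were not tested against each other. The SE ranges of miR-141-3p and miR-200b-3p overlapped, and 10 of the 15 CSF UMIs of miR-141-3p came from 1 library.

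The sizes of these differences depended on the scaling and on 1 library, although the direction did not. The members passed the count filter through plasma, where they were high, and all 5 were also called without that filter. With CPM per library total in place of TMM, the median over all miRNAs moved to -1.72 and the calls split into 63 higher and 734 lower. The members then ran from -7.52 for miR-200a-3p to -4.83 for miR-429-3p. Without the plasma DOCA-salt male the differences shrank to -4.83 for miR-200a-3p, -3.68 for miR-141-3p, -2.82 for miR-200b-3p, -2.55 for miR-429-3p and -2.05 for miR-200c-3p, all still called. Without the CSF DOCA-salt female, miR-141-3p differed by -5.78. Leaving the muscle list out before scaling gave -5.77 for miR-200a-3p and -3.27 for miR-200c-3p.

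The fitted folds depend on the scaling, and CSF counts were low. For miR-200a-3p the log2 difference was -5.76 with TMM, -7.52 with library totals in the same model and -7.81 from summed UMIs. From summed UMIs per total, without TMM, the family had 137 UMIs in CSF against 3521 in plasma, which gives a plasma level 56.6-fold above CSF (interval 47.7 to 67.6). For miR-200a-3p the sums were 8 in CSF and 817 in plasma (225-fold, interval 114 to 522), and for miR-429-3p 23 in CSF and 366 in plasma (35.0-fold, interval 23.0 to 55.9). These intervals do not overlap, so at this depth miR-200a-3p and miR-429-3p, neighbours in 1 cluster, differed in their ratio between fluids beyond counting error. For miR-141-3p the ratio was 102 (interval 61.5 to 183) and for miR-200c-3p, its neighbour on chromosome 6, 37.4 (interval 29.6 to 47.9). The plasma DOCA-salt male supplied 2418 of the 3521 plasma UMIs, and without it the family ratio was 24.7 (interval 20.6 to 29.7). It was then 102 for miR-200a-3p (interval 51.0 to 239), 19.9 for miR-429-3p (interval 12.7 to 32.3), 45.6 for miR-141-3p (interval 27.0 to 82.8) and 13.7 for miR-200c-3p (interval 10.6 to 17.8). Without the CSF DOCA-salt female the ratio of miR-141-3p was 267 (interval 114 to 825). Without the CSF DOCA-salt male it was 59.6 for miR-141-3p (interval 35.3 to 109.5), which overlapped that of miR-200c-3p, and 139.9 for miR-200a-3p (interval 67.6 to 349). The intervals of miR-200a-3p and miR-429-3p stayed apart whichever library was left out.

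As counted, the chromosome 4 cluster made up a smaller share of the family in CSF than in plasma. Its share of family UMIs was 39.1, 26.2, 35.7 and 38.6% in the CSF libraries, against 46.9, 41.6, 53.4 and 48.7% in the plasma libraries, and the fluids did not overlap. The mean log2 ratio of the chromosome 4 to the chromosome 6 cluster was -0.91 ± 0.40 in CSF and -0.14 ± 0.28 in plasma (SD, n = 4 each), given as a description without a test. Summed over libraries, the 2 clusters had 47 and 90 UMIs in CSF (chromosome 4 share 34.3%, interval 26.4 to 42.9%) and 1550 and 1971 UMIs in plasma (44.0%, interval 42.4 to 45.7%). The CSF shares rest on 23 to 44 family UMIs per library, and the interval of each took in a value seen in plasma.

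**Figure D2:**
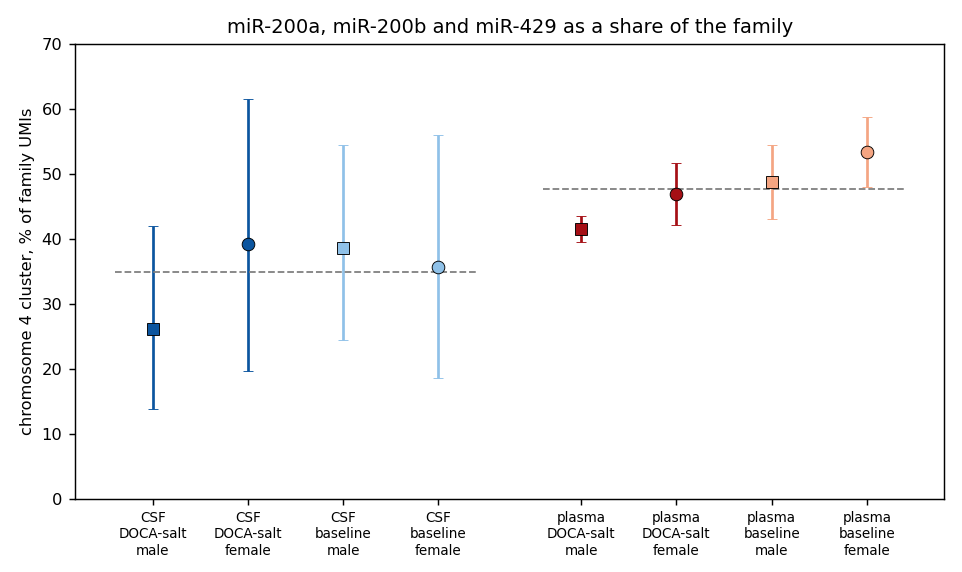
Share of family UMIs from the chromosome 4 cluster (miR-200a-3p, miR-200b-3p and miR-429-3p) in each library, in percent, with exact 95% intervals and the mean of each fluid as a dashed line. CSF libraries lie at 26.2 to 39.1% and plasma libraries at 41.6 to 53.4%, with wide intervals in CSF.

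In plasma the seed shares varied less than the cluster shares. The chromosome 4 share was lower in the DOCA-salt male (interval 39.6 to 43.6%) than in the baseline female (interval 47.9 to 58.7%), beyond counting error, and miR-200c-3p ranged from 28.9 to 38.9% of family UMIs. The share of miR-200a-3p ranged from 22.8 to 25.1% of family UMIs over the 4 plasma libraries, and that of miR-141-3p from 17.8 to 22.0%. The share of the seed AACACUG was 44.4, 42.3, 42.9 and 45.9%. In CSF the same seed took 47.8, 4.76, 10.7 and 15.9%. The high value is the DOCA-salt female with its 10 UMIs of miR-141-3p, and the summed share was 16.8% in CSF and 43.0% in plasma. Across the 4 plasma libraries the members' log2 levels correlated with each other at Pearson's r of 0.86 to 1.00, and across all 8 libraries at 0.75 to 0.98. The DOCA-salt male was the highest plasma library for every member, and every member was lower in CSF, so these contrasts enter the correlations. They are descriptions over few libraries that share depth and scaling.

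The opposite (5p) strands of the same hairpins differed far less between fluids than the 3p strands. The hairpins of miR-200a and miR-200c are shown because they stand at the 2 ends of this comparison. They are the RefSeq hairpins on GRCm38.p6, with the 3p strand in capitals.
Mir200a (chr4:156054896-156054985, minus strand): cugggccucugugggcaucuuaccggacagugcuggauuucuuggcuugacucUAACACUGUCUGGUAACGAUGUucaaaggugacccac
Mir200c (chr6:124718322-124718390, minus strand): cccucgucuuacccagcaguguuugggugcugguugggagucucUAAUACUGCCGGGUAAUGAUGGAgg

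miR-200a-5p had 7, 14, 7 and 3 UMIs in the CSF libraries and 18, 22, 17 and 8 in the plasma libraries. In CSF it therefore outnumbered miR-200a-3p in 3 of 4 libraries, the baseline male being the exception. The 3p strand made up 12.5, 6.67, 22.2 and 57.1% of the hairpin's UMIs in the CSF libraries, against 85.4, 96.2, 83.5 and 90.4% in the plasma libraries. Summed, that is 20.5% in CSF (interval 9.30 to 36.5%) and 92.6% in plasma (interval 90.7 to 94.3%).

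The hairpins of miR-141 and miR-429 showed the same direction. The 3p share of miR-141 was 83.3, 12.5, 33.3 and 27.3% in the CSF libraries, against 90.3, 95.9, 89.7 and 93.2% in the plasma libraries, and for miR-429 it was 36.8, 25.0, 28.6 and 50% in CSF, against 76.1, 86.1, 52.9 and 59.8% in plasma. For miR-200b the summed share was 69.6% in CSF and 94.8% in plasma. For miR-200c, in contrast, it was 89.3% in CSF and 95.9% in plasma, and the libraries of the 2 fluids overlapped.

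The 3p share was therefore lower in all 4 CSF libraries than in all 4 plasma libraries for 4 of the 5 hairpins. The same held for 94 of 674 other hairpins with at least 20 UMIs in each fluid (13.9%). In 125 of the 674 it was higher in all 4 CSF libraries than in all 4 plasma libraries. More of the 674 were thus higher than lower in CSF, so the 3p strand was not generally rarer there. Over other hairpins with at least 20 UMIs in the fluid itself, the median 3p share was 50% in CSF (680 hairpins) and 46.8% in plasma (750 hairpins). These medians are over sets of hairpins that differ in part. Of 53 other hairpins with a 3p share of at least 90% in plasma, a limit set after the values were seen, 2 had a share under 50% in CSF, and the median CSF share of the 53 was 94.8%. Of the 4 family hairpins above that limit, miR-200a and miR-141 had a share under 50% in CSF. No test was made of strand shares, and CSF hairpins rest on 2 to 31 UMIs per library.

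In edgeR's fit, 2 of the 5 opposite strands passed the count filter between fluids and neither was called. miR-200a-5p had a log2 difference of -0.36 ± 0.40 (adjusted p = 0.472) and miR-429-5p of -0.87 ± 0.41 (adjusted p = 0.0821). From summed UMIs per total, all 5 opposite strands together had 110 UMIs in CSF and 309 in plasma, a plasma level 6.18-fold above CSF (interval 4.96 to 7.76). The 3p strands were 56.6-fold above on the same scale. Without the plasma DOCA-salt male the ratios were 5.66 for the opposite strands (interval 4.46 to 7.20) and 24.7 for the 3p strands (interval 20.6 to 29.7), and neither with nor without that library did the intervals overlap. The strands of miR-200c alone were closer. The ratio was 13.5 for miR-200c-5p (interval 6.59 to 30.95) and 37.4 for miR-200c-3p (interval 29.6 to 47.9), so the intervals overlapped. Without that library these ratios were 13.3 and 13.7.

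**Figure D3:**
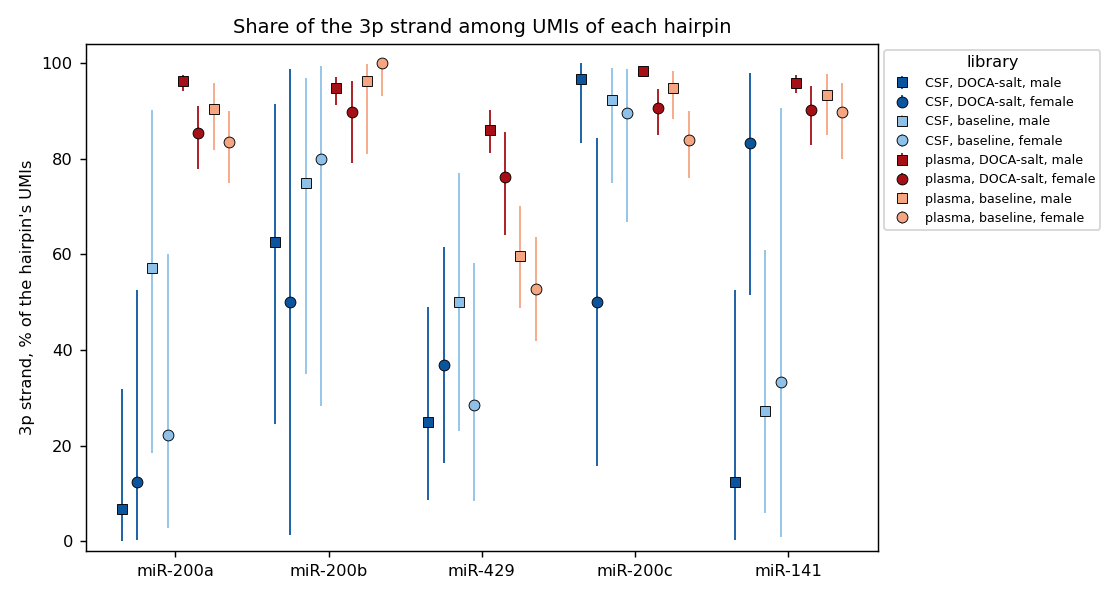
Share of the 3p strand among all UMIs of each family hairpin, in percent, per library with exact 95% intervals. Blue CSF points lie below all red plasma points for miR-200a, miR-200b, miR-429 and miR-141, and overlap them for miR-200c.

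Other miRNAs with epithelial expression went both ways. From a list of 10, 8 were tested between fluids, of which 4 were called higher and 1 lower in CSF under TMM scaling (median log2 difference 0.95, against -0.12 over all miRNAs tested). The one called lower was miR-31-5p (-1.78 ± 0.44, adjusted p = 0.00255), named here because it is a single call, with mean levels of 12.2 CPM in CSF and 121 CPM in plasma. miR-183-5p, which is abundant in sensory epithelia, differed by 7.83 ± 0.78 (adjusted p = 4.36e-07), with 9401 to 81710 CPM in CSF against 236 to 916 CPM in plasma. miR-192-5p, of kidney and gut, was higher in CSF by 2.16 ± 0.35 (adjusted p = 5.99e-05) and miR-203-3p, of skin keratinocytes, by 1.68 ± 0.43 (adjusted p = 0.00323). Their mean levels were 314 CPM in CSF against 209 CPM in plasma for miR-192-5p, and 366 CPM in CSF against 370 CPM in plasma for miR-203-3p, so the call of miR-203-3p rests on TMM scaling. miR-182-5p, from the same precursor cluster as miR-183-5p, differed by -0.99 ± 0.50 and was not called (adjusted p = 0.108), with mean levels of 98.3 CPM in CSF and 572 CPM in plasma.

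A list of 7 miRNAs of the choroid plexus, the epithelium that makes CSF, and of ciliated cells had 3 tested between fluids, of which 1 was higher and 1 lower in CSF. As a whole the list took a smaller share in CSF, 0.0308 to 0.0412% of UMIs against 0.0744 to 0.143% in plasma. miR-204-5p, a marker of choroid plexus and retinal pigment epithelium, was higher by 3.22 ± 0.46 (adjusted p = 1.74e-05), with 198 to 351 CPM in CSF against 74.1 to 111 CPM in plasma. miR-34b-3p, of ciliated cells, was lower in CSF, with a log2 difference of -2.14 ± 0.40 (adjusted p = 0.000205). miR-211-5p, a close relative of miR-204-5p, differed by 0.25 ± 0.37 under TMM scaling and was not called (adjusted p = 0.595). In CPM miR-211-5p went the other way, with mean levels of 39.5 CPM in CSF and 94.2 CPM in plasma.

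DOCA-salt was next compared with baseline within plasma, where the family was well counted. None of the 5 members was called by edgeR, with sex and treatment as terms, at an adjusted p under 0.05, in a comparison that called 15 of 1398 miRNAs (1.07%). DESeq2's Wald test also called 0 of 5. In edgeR 4 of 5 had an unadjusted p under 0.05, as did 192 of the 1398 miRNAs. All 5 estimates were positive, at 1.51 ± 0.53 for miR-200c-3p (adjusted p = 0.162), 1.26 ± 0.51 for miR-141-3p (adjusted p = 0.223), 1.17 ± 0.54 for miR-200b-3p (adjusted p = 0.325), 1.15 ± 0.52 for miR-200a-3p (adjusted p = 0.312) and 0.68 ± 0.49 for miR-429-3p (adjusted p = 0.585). The fit had 1 residual degree of freedom, so unlike responses of the sexes enter its error.

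The male and female pairs of plasma libraries gave unlike ratios. In the male pair of plasma libraries, miR-200c-3p had 940 UMIs under DOCA-salt against 92 at baseline, a TMM-scaled log2 ratio of 2.54 (interval 2.24 to 2.87) or 5.80-fold. miR-200b-3p had 237 UMIs under DOCA-salt against 26 at baseline (2.34, interval 1.80 to 3.03). miR-200a-3p had 551 against 75 (2.06, interval 1.72 to 2.44), and miR-141-3p 473 against 69 (1.96, interval 1.60 to 2.36). The smallest ratio was that of miR-429-3p, with 217 UMIs under DOCA-salt against 52 at baseline (1.24, interval 0.81 to 1.72).

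In the female pair the same ratios were 0.52 for miR-200c-3p (interval 0.15 to 0.91), 0.59 for miR-141-3p (interval 0.12 to 1.09), 0.27 for miR-200a-3p, 0.13 for miR-429-3p and 0.04 for miR-200b-3p, and the last 3 had intervals that hold 0. The family sum gave 2.14 in the male pair (interval 1.97 to 2.31) and 0.37 in the female pair (interval 0.16 to 0.57). All 5 members were at least 2-fold higher under DOCA-salt in the male pair, where 121 of 673 miRNAs with at least 50 UMIs over the pair were (18.0%). None was in the female pair, where 49 of 703 were (6.97%). With 1 library per combination, whether the DOCA-salt effect differs between sexes cannot be tested, and 1 library, the plasma DOCA-salt male, carries the male ratio. Without it, in a fit of the 7 other libraries that leaves the female pair to set the plasma effect, the estimates were 0.63 for miR-200c-3p and 0.38 for miR-200a-3p, and they were the same to 2 decimals without the baseline male.

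**Figure D4:**
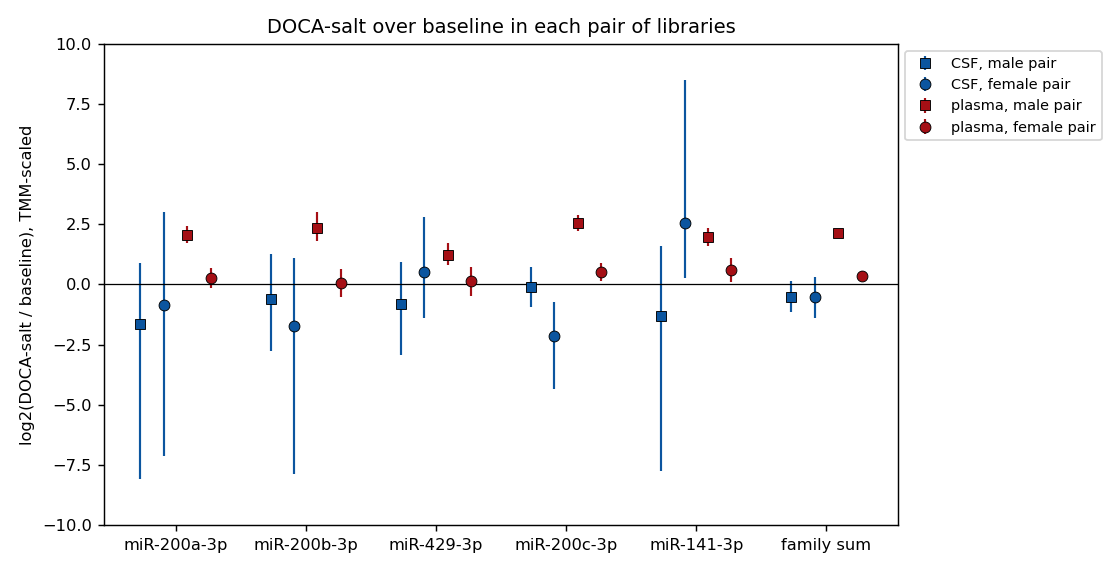
Log2 ratio of DOCA-salt to baseline for each member and for their sum, TMM-scaled, in the male (square) and female (circle) pair of libraries of each fluid, with exact 95% counting intervals. The plasma male pair lies between 1.24 and 2.54 and the plasma female pair between 0.04 and 0.59, while CSF intervals are wide.

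Both clusters were higher in the plasma DOCA-salt male. The chromosome 4 cluster had 1005 UMIs under DOCA-salt against 153 at baseline in the male pair (log2 ratio 1.90, interval 1.66 to 2.16), and the chromosome 6 cluster 1413 against 161 (2.32, interval 2.09 to 2.57). Their opposite strands, summed, had 106 UMIs under DOCA-salt and 54 at baseline in males, a log2 ratio of 0.16 with an interval that holds 0 (-0.32 to 0.67). That sum combined unlike ratios in the male pair. miR-429-5p had 35 UMIs in both libraries (-0.78, interval -1.53 to -0.088), whereas miR-200b-5p had 13 under DOCA-salt against 1 at baseline (2.16, interval 0.16 to 8.30). miR-141-5p gave 1.07, miR-200c-5p 0.77 and miR-200a-5p 0.60, with intervals that hold 0. miR-200a-5p stayed between 50.5 and 72.2 CPM in all 4 plasma libraries, while miR-200a-3p spanned 307 to 1808 CPM. miR-429-5p, the opposite strand with the most UMIs, had an edgeR estimate for DOCA-salt in plasma of -1.10 ± 0.42 (adjusted p = 0.199).

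Compared with the baseline male, other marker lists went both ways in the plasma DOCA-salt male. The muscle list took 1.5% of its UMIs, against 0.290% in the baseline male, and ranged from 0.596 to 0.648% in the female plasma libraries. The skeletal muscle miRNA miR-206-3p had a log2 ratio of 3.60 in the male pair (interval 3.32 to 3.92) and 1.83 in the female pair, and was called for DOCA-salt in plasma (2.67 ± 0.50, adjusted p = 0.0041). The list of other epithelial miRNAs took 0.380% in that library, against 0.203% in the baseline male, and the choroid plexus and ciliated list 0.143% against 0.0744%. The erythrocyte list took 11.8% there, against 13.2% in the baseline male, and the neuronal list 0.165% against 0.174%. Members of these lists were mixed, with male log2 ratios of -0.80 for miR-451a, 0.61 for miR-486a-5p, -0.99 for miR-9-5p and 0.39 for miR-128-3p. Of the epithelial list, miR-183-5p had a male ratio of 1.84 (interval 1.40 to 2.35) and miR-182-5p of 1.56 (interval 1.23 to 1.93), whereas miR-203-3p had 0.56 and miR-192-5p -0.14. edgeR called 0 of 9 tested members of the epithelial list for DOCA-salt in plasma, 3 of which had an unadjusted p under 0.05. It called 0 of 5 of the choroid plexus and ciliated list, none of which had an unadjusted p under 0.05. That library also had the fewest reads per UMI in plasma, 3.68 against 6.19 in the baseline male. The part of these differences in the family's ratio was not tested.

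In CSF the DOCA-salt comparison called 2 of 1036 miRNAs (0.193%), and miR-200c-3p was the only member with enough counts to be tested. Its estimate was -0.92 ± 0.55 and was not called by edgeR (adjusted p = 0.629). In the female pair it had 4 UMIs under DOCA-salt and 17 at baseline (log2 ratio -2.16, interval -4.36 to -0.71), and in the male pair 30 and 24 (-0.12, interval -0.95 to 0.71). miR-141-3p had 10 UMIs under DOCA-salt and 1 at baseline in the female pair (2.55, interval 0.27 to 8.52). The family sum gave -0.51 in both pairs, with intervals that hold 0 (up to 0.32 in females and 0.13 in males). Each pair sets 1 library against 1, and its interval covers counting error only. An effect of DOCA-salt on the family sum in CSF was not tested.

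Whether DOCA-salt acted differently in the 2 fluids was tested as an interaction, for which edgeR called 0 of 1465 miRNAs (0%). It gave 113 an unadjusted p under 0.05, and DESeq2's Wald test called 1. The members' differences, CSF minus plasma, were -3.06 ± 1.19 for miR-200a-3p (adjusted p = 0.578), -2.54 ± 0.81 for miR-200c-3p (adjusted p = 0.478), -2.41 ± 1.03 for miR-200b-3p (adjusted p = 0.623), -0.97 ± 0.86 for miR-429-3p (adjusted p = 0.814) and -0.41 ± 1.21 for miR-141-3p (adjusted p = 0.963). In edgeR 3 of the 5 had an unadjusted p under 0.05, and DESeq2's test called none of them.

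Male and female libraries were compared last. In plasma edgeR called 2 of 1398 miRNAs (0.143%) and no member, while 4 of 5, and 103 of the 1398, had an unadjusted p under 0.05. DESeq2's test called no member. The 5 estimates were positive, from 0.81 ± 0.54 for miR-200b-3p (adjusted p = 0.805) to 1.46 ± 0.53 for miR-200c-3p (adjusted p = 0.404). In the DOCA-salt pair males stood above females by log2 ratios of 1.83 for miR-429-3p to 2.47 for miR-200c-3p. At baseline the male over female ratio was 0.44 for the family sum (interval 0.21 to 0.66) and ran from -0.40 for miR-200b-3p to 0.73 for miR-141-3p. Without the plasma DOCA-salt male the estimate for miR-200b-3p turned to -0.52.

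In CSF the sex comparison called 54 of 1036 miRNAs (5.21%), and miR-200c-3p, the only member tested, had an estimate of 0.87 ± 0.56 (adjusted p = 0.475), which became -0.27 with scaling by library totals. For the difference of the sex effect between fluids edgeR called 12 of 1465 miRNAs (0.819%) and no member, with 1 of 5 and 172 of the 1465 at an unadjusted p under 0.05. The member farthest from 0 was miR-141-3p, at -3.26 ± 1.08 (adjusted p = 0.207). It had 10 UMIs in the CSF DOCA-salt female and 1 to 3 in the other CSF libraries. DESeq2's test gave no adjusted p for miR-200c-3p in the CSF comparison, nor for miR-200b-3p and miR-429-3p in the difference between fluids, where it called none of the other 3 members. With scaling by library totals edgeR called miR-141-3p and miR-429-3p for that difference.

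Among 726 miRNAs with a mean of at least 20 UMIs, those whose log2 level followed the family's mean most closely over the 8 libraries were miR-1956 (Pearson's r = 0.97), miR-152-5p (0.96), miR-9718 (0.96), miR-432 (0.96) and miR-6936-3p (0.96). All were low in CSF: miR-1956 had 94.2 to 324 CPM there against 2812 to 5487 CPM in plasma. With each fluid's mean subtracted, so that only variation within fluids counted, the closest were miR-7681-5p (0.90), miR-182-5p (0.88), miR-7017-3p (0.82), miR-6244 (0.82) and miR-29c-5p (0.79). All 5 had their highest plasma level in the DOCA-salt male, as miR-182-5p with 219, 1401, 150 and 517 CPM in the plasma libraries. These correlations describe 8 libraries of 2 fluids, with depth and scaling in common, and with a prior count of 5 in place of 1 each group of 5 shared 3 of its miRNAs with the one given.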

How the data were processed

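Deposited tables gave UMI counts, read counts and CPM per mature miRNA for 4 CSF and 4 plasma libraries. Per the labels' protocols, RNA was extracted with a miRNeasy Micro kit, QIAseq libraries carried UMIs and adapters were removed with Cutadapt 2.7. Per the submitters' processing notes, Bowtie 1.3.0, edgeR and the builds mm10 and GRCm38 were used. The deposited CPM equal UMI counts scaled to the library total for all members (largest relative difference 0). Read-level settings and treatment of near-identical members are not given in the sources used here.

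UMI counts were tested with R 4.3.3, edgeR 4.0.16 (quasi-likelihood, filterByExpr, TMM, Benjamini-Hochberg over all tested miRNAs, threshold 0.05) and limma 3.58.1, with DESeq2 1.42.0 as an alternative. The scripts were tested on simulated data. Fluid was compared over 8 libraries (6 residual degrees of freedom), treatment and sex within fluids (1), and interactions over all (2). Pair ratios used TMM-scaled counts with a prior count of 1 and exact conditional intervals. Shares carry exact Clopper-Pearson intervals at 95%. Totals ran from 158572 to 1082504 UMIs.

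Text names the 5 members, their opposite strands, up to 4 miRNAs of highest count per marker list, and the 5 most similar miRNAs. Members and lists were chosen with earlier results of these data known. Read counts in the fits, total scaling of pair ratios and leaving out libraries from summed ratios were added after seeing the data.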

Additional observations from a re-analysis of the deposited data

Results flagged for a closer look

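In groups of 4 libraries, the highest or lowest was checked for a gap to its neighbour above Dixon's 95% critical share of the whole range, a limit that chance passes in about 1 of 20 groups. The plasma DOCA-salt male passed it for 4 of 5 members, which share that library: miR-200a-3p with 1808 CPM (gap 0.890 of the range), miR-200b-3p with 777.8 CPM (0.960), miR-200c-3p with 3085 CPM (0.917) and miR-141-3p with 1552 CPM (0.837). miR-429-3p, at 712 CPM in the same library, did not pass. In CSF the DOCA-salt female passed for miR-141-3p, with 32.94 CPM (0.898) from 10 UMIs.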

How the results depend on the processing

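Each comparison was refitted with DESeq2's size factors, scaling by library totals, DESeq2's Wald test, no count filter, read counts (chosen after seeing the data) and each library left out. The fluid comparison was also refitted with other model terms and without muscle miRNAs, and comparisons within a fluid in a joint fit. Between fluids all 5 members were called lower in 15 of 16 alternatives. In DESeq2's Wald test 4 were, as miR-200c-3p (-3.19) had no adjusted p. No member was called for treatment or sex within a fluid, or for the difference of the DOCA-salt effect, in any alternative. For the difference of the sex effect, scaling by library totals called 2 members, miR-141-3p (-4.66) and miR-429-3p (-3.22), where the main count was 0. Leaving out 1 library within a fluid used the joint fit, in which a lone library is assumed to vary like the others.

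Some estimates that were not called changed sign, and the cause was not tested. With single libraries left out, miR-200b-3p for sex in plasma ran from -0.52 (without the DOCA-salt male) to 1.83, and was -0.51 without the DOCA-salt female, and miR-200c-3p for sex in CSF was -0.27 with scaling by totals. For the difference of the DOCA-salt effect, miR-141-3p ran from -3.17 to 1.74 with single libraries left out, and was above 0 without any 1 of the 4 male libraries. For the difference of the sex effect, miR-200b-3p was 0.021 with read counts, and leaving out single libraries gave -1.26 to 1.09 for it and -1.48 to 0.82 for miR-200c-3p. The mean log2 cluster ratio with reads was -1.02 in CSF and -0.14 in plasma, within 1 SD of the UMI values. TMM scaling together with a prior count of 1 raised mean CSF levels of 4 members by more than 1 SD. They rose to 66.6 CPM for miR-200c-3p and 10.2 CPM for miR-200a-3p. The parts of the scaling and of the prior count in this rise were not separated.

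Over all miRNAs, the calls for DOCA-salt in plasma numbered 15 in the main fit and 0 to 29 in the alternatives, and for sex in CSF 54 and 0 to 359. For sex in plasma they numbered 2 and 0 to 10, for DOCA-salt in CSF 2 and 0 to 4, and for the difference of the sex effect 12 and 0 to 321. The difference of the DOCA-salt effect gave 0 in the main fit and 0 to 3 otherwise. CSF libraries held 1 to 30 UMIs of a member, which limits what can be seen there. The labels carry no replicate numbers, and a block per combination of sex and treatment, which pairs the libraries of the 2 fluids, left all 5 members called between fluids.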
